A study of Mus musculus with 20 samples.

Results

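The genes described here carry hormone and nerve signals from the surface of heart cells to their interior through heterotrimeric G proteins. A list of 10 genes was used: Gnb3, Gnb1 and Gnb2, which encode G protein beta subunits, Gnas, Gnai2, Gnai3 and Gna11, which encode alpha subunits, the adrenergic receptor genes Adra1b and Adrb1, and Adcy6, an adenylyl cyclase gene. Every probe set that the array's annotation links to 1 of these genes alone was taken, which gave 16 of 12422 probe sets. They cover 9 of the 10 genes, out of 8251 genes with such a probe set on the array. No probe set was linked to Adrb1 alone, so the beta-1 receptor was not analysed here. Of the 16 probe sets, 14 were bright enough to be tested. The list was drawn up with results of these arrays known. Gnb3 was selected on its measured difference between tTA and FVBN hearts, so its values are given as a description with no test, while the others were chosen by name as genes of the same signaling route.

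Transcripts of mouse heart ventricle were measured on Affymetrix arrays to ask how expression of the tetracycline transactivator (tTA) alters the heart. Groups were 5 arrays of tTA mice given Doxy (tTA + Doxy), 8 of tTA mice without it (tTA), 4 of wild-type FVBN mice given Doxy (FVBN + Doxy) and 2 of wild-type FVBN mice labelled control (FVBN control). The keywords of the labels name the alpha MHC promoter, which is active in heart muscle cells, so the transgene is not expected in the other cells of the ventricle. Doxy is taken as doxycycline, which stops tTA from binding its operator sequences. The labels state neither its dose and duration, nor the age and sex of the mice, nor the founder line. They do not say that each array came from its own animal, so a p-value here measures spread between arrays, which may be technical. Arrays are named by the numbers in their labels. What these numbers stand for is not stated, and the labels name no batch. FVBN control is 8177 and 8182, FVBN + Doxy 8337 to 8341, tTA + Doxy 7399 to 7488, and tTA 7288 to 7311 with 9310 and 9322 above all others. Put in order of number, the arrays fall into blocks of 1 group each, with tTA arrays at both ends. No block holds both genotypes, or arrays with and without Doxy, so whatever marks a block cannot be told apart from genotype or Doxy.

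A G protein consists of an alpha subunit that binds guanine nucleotides and a beta-gamma pair. An activated receptor makes the alpha subunit exchange GDP for GTP and part from the beta-gamma pair, and both parts then act on effectors. In heart muscle, beta-adrenergic receptors act through the stimulatory alpha subunit Gs on adenylyl cyclase, whose product cyclic AMP activates protein kinase A, while inhibitory Gi subunits oppose this and alpha-1 receptors act through the Gq family on phospholipase C. Gnb3 is best known as the beta subunit of cone photoreceptors, where it pairs with the cone transducin alpha subunit.

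Markers of heart muscle cells were read first. All 7 cardiomyocyte markers (Myh6, Tnnt2, Tnni3, Actc1, Myl2, Myl3 and Ckm) were tested, and their summed normalized intensity was 26109 to 29156 in tTA + Doxy, 24594 to 28769 in tTA, 27362 to 28817 in FVBN + Doxy and 27101 to 29006 in FVBN control. None was called in any comparison. Between genotypes, 2.79% (without Doxy) and 5.86% (with Doxy) of all tested probe sets were called. Their log2 differences between genotypes lay between -0.17 and 0.04 without Doxy and between -0.22 and 0.08 with it. Ckm was lowest in both (limma adjusted p = 0.313 and 0.0626). With Doxy its values did not overlap between genotypes, as was so for 9.71% of all tested probe sets. Median deposited intensity lay between 60.74 and 62.45 on all arrays. The beta-actin control probe sets at the 3' and 5' ends of the transcript gave a log2 3'/5' ratio, a sign of RNA integrity, of 0.27 to 0.419 in tTA + Doxy and 0.145 to 0.445 in tTA, against 0.407 to 0.6 in FVBN + Doxy and 0.543 and 0.555 in FVBN control.

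Gnb3, on chromosome 6, was higher in hearts with the transgene, with and without Doxy. Its normalized intensity in tTA + Doxy was 128 on array 7399, 128 on 7424, 155 on 7485, 143 on 7486 and 189 on 7488. In tTA it was 128 on array 7288, 169 on 7292, 149 on 7294, 152 on 7308, 144 on 7310, 171 on 7311, 128 on 9310 and 123 on 9322. In FVBN + Doxy it was 102 on 8337, 96.6 on 8338, 101 on 8340 and 90.1 on 8341, and in FVBN control it was 91.5 on 8177 and 85.7 on 8182. The lowest of the 13 arrays with the transgene stood above the highest of the 6 without it. Such a separation was seen upward for 58 of the 7453 tested probe sets (0.778%) and downward for 42 (0.564%).

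Mean Gnb3 intensity was 149 ± 25.4 (SD, n = 5) in tTA + Doxy, 146 ± 18.4 (n = 8) in tTA, 97.6 ± 5.62 (n = 4) in FVBN + Doxy and 88.6 ± 4.06 (n = 2) in FVBN control. The SD was thus 18.4 or more in the groups with the transgene and 5.62 or less in those without. The log2 difference between tTA and FVBN control was 0.71, a 1.63-fold higher intensity. Between tTA + Doxy and FVBN + Doxy it was 0.59, a 1.51-fold higher intensity. These comparisons share no arrays, but both rest on the same normalization over 19 arrays and the same fit. Gnb3 was selected on the difference between tTA and FVBN hearts, so the second is not an independent check of the first. Among the 7453 tested probe sets Gnb3 ranked 7 from the highest in the first and 13 from the highest in the second. In bulk tissue, more cells of a type and more RNA per cell cannot be told apart.

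**Figure D1:**
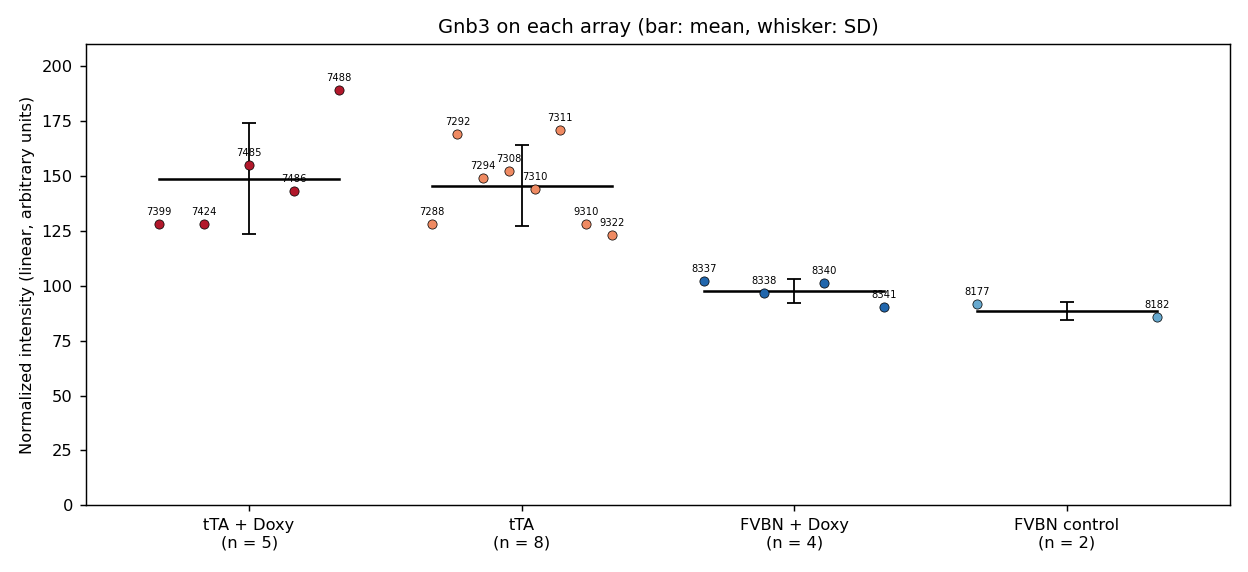
Normalized Gnb3 intensity (linear, arbitrary units) on each of the 19 arrays by group, with array numbers beside the points, means as bars and SDs as whiskers. All 13 arrays with the transgene, from 123 to 189, lie above the 6 FVBN arrays, from 85.7 to 102.

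Gnb3 values with and without Doxy lay close together in both genotypes. FVBN + Doxy differed from FVBN control by 0.14 on the log2 scale (95% interval -0.16 to 0.43), and tTA + Doxy from tTA by 0.02 (95% interval -0.17 to 0.22). The values of the compared groups overlapped in both cases. The difference of these Doxy effects was -0.12 (95% interval -0.47 to 0.24).

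The beta-actin ratio also differed with genotype. It was lower where Gnb3 was higher, with means of 0.362 in tTA + Doxy and 0.323 in tTA, against 0.509 in FVBN + Doxy and 0.549 in FVBN control. The ratio overlapped between genotypes (0.419 on tTA + Doxy array 7486 and 0.445 on tTA array 7310, against 0.407 on FVBN + Doxy array 8341). Its part in the result was not tested beyond a fit that took it as a covariate. In that fit the Gnb3 differences were 0.53 for tTA against FVBN control and 0.47 for tTA + Doxy against FVBN + Doxy. Because the ratio differed with genotype, the fit cannot tell the part of the ratio from that of genotype. Within tTA, arrays 7292, 7311 and 7308 had the lowest ratios (0.145, 0.227 and 0.245) and the highest Gnb3 (169, 171 and 152). Arrays 7288 and 9322 of that group had ratios of 0.414 and 0.439 and Gnb3 of 128 and 123. Array 7310 had its highest ratio (0.445) and a Gnb3 level of 144. In tTA + Doxy, array 7424 had the lowest ratio (0.27) and a Gnb3 level of 128, and 7488 had a ratio of 0.333 and the highest Gnb3 (189). FVBN + Doxy array 8341 had the lowest ratio (0.407) and the lowest Gnb3 (90.1). Leaving out each array in turn gave differences of 0.66 to 0.75 without Doxy and 0.5 to 0.64 with it.

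Because Gnb3 is a cone gene, markers of photoreceptors and retina were read beside it. Of 12 listed, 8 had a probe set and 4 were tested (Pde6a, Pde6b, Opn1sw and Opn1mw), and none was called in any comparison. Between genotypes, 2.79% (without Doxy) and 5.86% (with Doxy) of all tested probe sets were called. The summed intensity of all 8, tested or not, was 307 to 321 in tTA + Doxy, 308 to 331 in tTA, 313 to 337 in FVBN + Doxy and 301 to 308 in FVBN control. The probe sets of the transducin alpha subunits Gnat1 (14.8 to 18.5 over all arrays) and Gnat2, the cone partner of Gnb3 (18.4 to 23.1), of arrestin Sag (16.5 to 20.7) and of recoverin, Rcvrn (25.7 to 34.4), were too dim to be tested.

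Gnb1, on chromosome 4, encodes a widely expressed beta subunit and had 3 tested probe sets, of which 94853_at and 94854_g_at derive from the same source sequence. The brightest, 97458_at, read 236, 232, 227, 245 and 221 in tTA + Doxy and 204 to 263 with a median of 221 in tTA. It read 189, 174, 231 and 229 in FVBN + Doxy and 237 and 266 in FVBN control. All FVBN + Doxy arrays thus lay below both FVBN control arrays, and arrays 8337 and 8338 were lowest of all 19.

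The sign of the Gnb1 genotype difference differed with Doxy, but none of these differences passed the test. For 97458_at, tTA lay -0.17 on the log2 scale from FVBN control (SE 0.0918, limma adjusted p = 0.375), while tTA + Doxy lay 0.18 from FVBN + Doxy (SE 0.0779, adjusted p = 0.169). The other probe sets gave -0.24 and -0.14 without Doxy (limma adjusted p = 0.458 and 0.718) and 0.20 and 0.12 with it (0.386 and 0.666). FVBN + Doxy lay -0.30 from FVBN control for 97458_at (95% interval -0.51 to -0.09, limma adjusted p = 0.355), -0.41 for 94854_g_at (adjusted p = 0.396) and -0.22 for 94853_at (adjusted p = 0.619). In tTA hearts the Doxy differences were 0.05, 0.03 and 0.04. Leaving out each array in turn gave 97458_at differences of -0.25 to -0.08 between tTA and FVBN control and -0.38 to -0.22 for Doxy in FVBN. For 94853_at the difference between tTA and FVBN control was -0.33 without FVBN control array 8177 and 0.04, of opposite sign, without 8182, and the Doxy difference in FVBN ranged from -0.41 to -0.04. The test of the difference between Doxy effects gave 0.35 for 97458_at (95% interval 0.10 to 0.60, limma adjusted p = 0.247), 0.44 for 94854_g_at (adjusted p = 0.325) and 0.26 for 94853_at (adjusted p = 0.572). The probe sets moved together from array to array, with Pearson r of 0.741 to 0.828 over the 19 arrays, which share their RNA and scaling. FVBN + Doxy array 8337 was at or near the bottom of its group on all 3, with 189, 109 and 52.7, and 8338 read 174, 127 and 53.0.

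**Figure D2:**
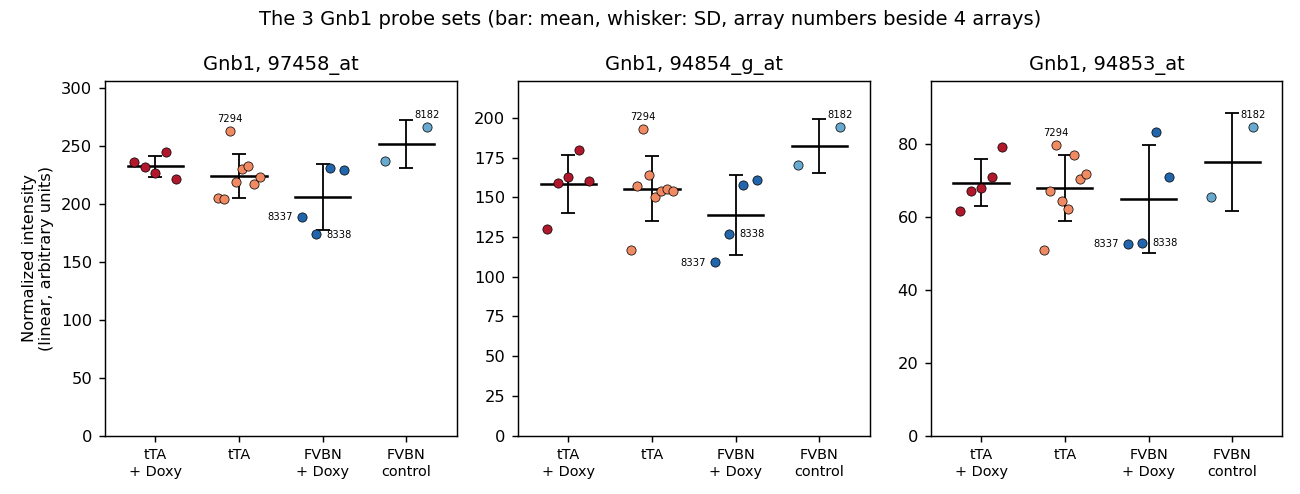
Normalized intensity (linear, arbitrary units) of the 3 Gnb1 probe sets on each array by group, with means as bars, SDs as whiskers and numbers beside 4 arrays. FVBN + Doxy arrays 8337 and 8338 sit low in each panel, and tTA array 7294 and FVBN control array 8182 sit high.

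Gnb2, on chromosome 5, which encodes another widely expressed beta subunit, was nearly level. It averaged 462 ± 12.1 (SD, n = 5) in tTA + Doxy, 466 ± 17.4 (n = 8) in tTA, 463 ± 13.9 (n = 4) in FVBN + Doxy and 457 ± 19.2 (n = 2) in FVBN control. All 5 differences lay between -0.03 and 0.03 on the log2 scale, the 2 between genotypes at 0.03 without Doxy (95% interval -0.08 to 0.13) and 0.00 with it (-0.09 to 0.09). A genotype change of Gnb2 as large as that of Gnb3 lay outside these intervals.

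Gnas, on chromosome 2, encodes the stimulatory alpha subunit that activates adenylyl cyclase. Its probe set 93271_s_at read 3919, 3919, 3968, 3919 and 4015 in tTA + Doxy, 3623 to 4081 with a median of 3919 in tTA, 3532, 3865, 3623 and 3919 in FVBN + Doxy, and 3919 and 3865 in FVBN control. The repeated values come from the rank-based scaling, which gives bright probe sets of equal rank the same value. tTA differed from FVBN control by 0.00 on the log2 scale (95% interval -0.10 to 0.10, limma adjusted p = 0.991), and tTA + Doxy from FVBN + Doxy by 0.08 (adjusted p = 0.257). Gnas probe sets 102082_at and 92672_at, with group means of 40.8 to 44.7 and 20.6 to 21.7, were too dim to be tested.

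Gnai2, on chromosome 9, encodes the main inhibitory alpha subunit of the ventricle, and its 3 probe sets gave small differences. Probe set 99597_at read 369, 367, 359, 337 and 319 in tTA + Doxy, 339 to 364 with a median of 355 in tTA, 366, 323, 359 and 369 in FVBN + Doxy, and 321 and 330 in FVBN control. All 8 tTA arrays lay above both FVBN control arrays, by 0.12 on the log2 scale (SE 0.0588), and the difference did not pass (limma adjusted p = 0.32). The probe set 99598_g_at, from the same source sequence, differed by 0.08 (adjusted p = 0.661), and 99596_f_at, whose suffix marks probes shared within a gene family, by 0.14 (adjusted p = 0.458). With Doxy the genotypes differed by -0.02, 0.00 and 0.05 (limma adjusted p of 0.74 or more). Gnai3, on chromosome 3, another inhibitory alpha subunit gene, averaged 204 ± 9 (SD, n = 5) in tTA + Doxy, 211 ± 8.33 (n = 8) in tTA, 213 ± 5.68 (n = 4) in FVBN + Doxy and 203 ± 18 (n = 2) in FVBN control. Its genotype differences were 0.06 without Doxy and -0.07 with it (limma adjusted p = 0.66 and 0.429).

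Gna11, on chromosome 10, belongs to the Gq family that activates phospholipase C, and had 2 tested probe sets. The brighter, 103411_at, averaged 198 ± 4.09 (SD, n = 5) in tTA + Doxy, 200 ± 11.1 (n = 8) in tTA, 206 ± 8.42 (n = 4) in FVBN + Doxy and 200 ± 15 (n = 2) in FVBN control. The dimmer, 102196_at, averaged 124 ± 8.24, 122 ± 9.31, 114 ± 6.03 and 127 ± 9.25 in the same groups. The genotype differences of the brighter were 0.00 without Doxy and -0.05 with it (limma adjusted p = 0.999 and 0.555), and those of the dimmer were -0.07 and 0.12 (0.719 and 0.289). On tTA array 7310 the brighter probe set read 227 while the other tTA arrays read 193 to 201.

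Adra1b, on chromosome 11, encodes the alpha-1B receptor, which signals through the Gq family, and its values were lower on most arrays with the transgene. It read 109, 91.6, 84.3, 92.7 and 94.0 in tTA + Doxy and 88.7 to 103 with a median of 94.2 in tTA. It read 94.8, 121, 93.5 and 120 in FVBN + Doxy and 114 and 104 in FVBN control. The tTA and FVBN control values did not overlap, whereas FVBN + Doxy held 2 arrays near 94 and 2 near 120 and overlapped tTA + Doxy. The log2 difference was -0.19 without Doxy (SE 0.0918, limma adjusted p = 0.298) and -0.18 with it (SE 0.0779, adjusted p = 0.175), and neither passed the test.

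Adcy6, on chromosome 15, encodes an adenylyl cyclase isoform of heart muscle that Gs activates and Gi inhibits. It read 276, 268, 254, 301 and 243 in tTA + Doxy and 239 to 303 with a median of 265 in tTA. It read 303, 280, 332 and 266 in FVBN + Doxy and 323 and 283 in FVBN control. The values overlapped between genotypes. The log2 difference was -0.17 without Doxy (SE 0.0929, limma adjusted p = 0.373) and -0.14 with it (SE 0.0788, adjusted p = 0.331), and neither passed. In the fit with the beta-actin covariate these differences were -0.01 and -0.03.

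**Figure D3:**
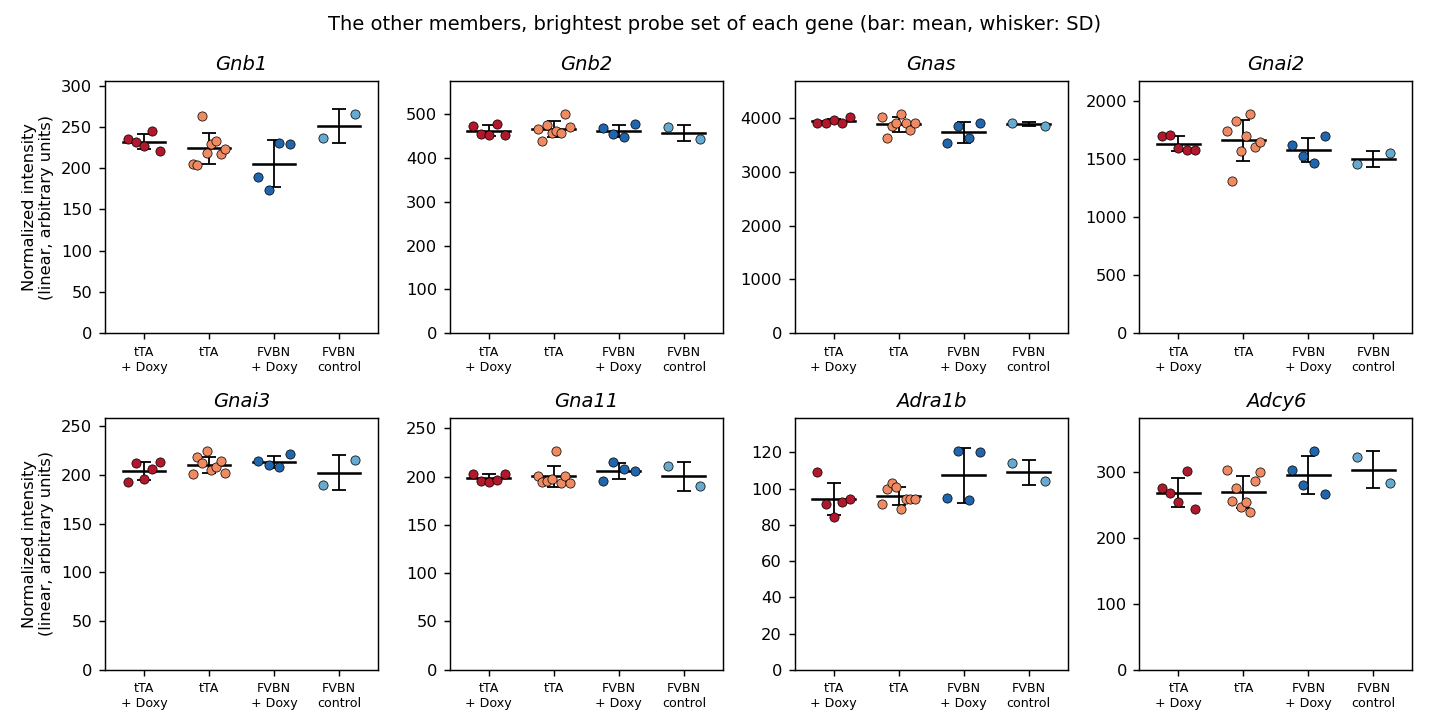
Normalized intensity (linear, arbitrary units) on each array for the brightest probe set of Gnb1, Gnb2, Gnas, Gnai2, Gnai3, Gna11, Adra1b and Adcy6, with means as bars and SDs as whiskers; levels are not comparable between panels. Groups overlap between genotypes in both pairs for all genes shown, except Adra1b in tTA against FVBN control.

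Leaving Gnb3 aside, none of the 13 tested probe sets of the list was called by limma in tTA against FVBN control or in tTA + Doxy against FVBN + Doxy, where 2.79% and 5.86% of all tested probe sets were called. Those shares moved with the arrays used. The 208 calls behind the first became 54 without FVBN control array 8177, 63 without 8182 and 27 with the beta-actin covariate. The 437 behind the second became 241 to 271 without FVBN + Doxy array 8337 or 8341 or tTA + Doxy array 7485 or 7488. None of the 13 was called in FVBN + Doxy against FVBN control, in tTA + Doxy against tTA or in the difference of the Doxy effects, where 0.0403%, 0.0671% and 0.0134% of all were called. At an unadjusted p below 0.05 the 13 held 1, 2, 2, 0 and 2 in the 5 comparisons, beside 16.7%, 21.1%, 11.8%, 7.65% and 14.6% of all tested probe sets.

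Values did not overlap between tTA and FVBN control for Gnb3, which was selected on the genotype difference, so nothing is read from its separation. Among the others they did not overlap for Gnai2 99597_at and Adra1b, where 12.7% of all probe sets did not. Between tTA + Doxy and FVBN + Doxy only Gnb3 did not overlap (9.71% of all), and nothing is read from this for the same reason. Between FVBN + Doxy and FVBN control 2 Gnb1 probe sets did not overlap, 97458_at and 94854_g_at (23.4% of all). All 14 overlapped between tTA + Doxy and tTA (0.389% of all did not). The median log2 difference of the 14 was -0.000443 in tTA against FVBN control, beside 0.0133 over all tested probe sets, and 0.0235 in tTA + Doxy against FVBN + Doxy, beside -0.0148. In both comparisons 7 lay above 0, Gnb3 among them, and 7 below. The medians of the 14 also include Gnb3. Apart from Gnb3, no tested probe set of the list differed by more than 0.24 in size between genotypes.

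**Figure D4:**
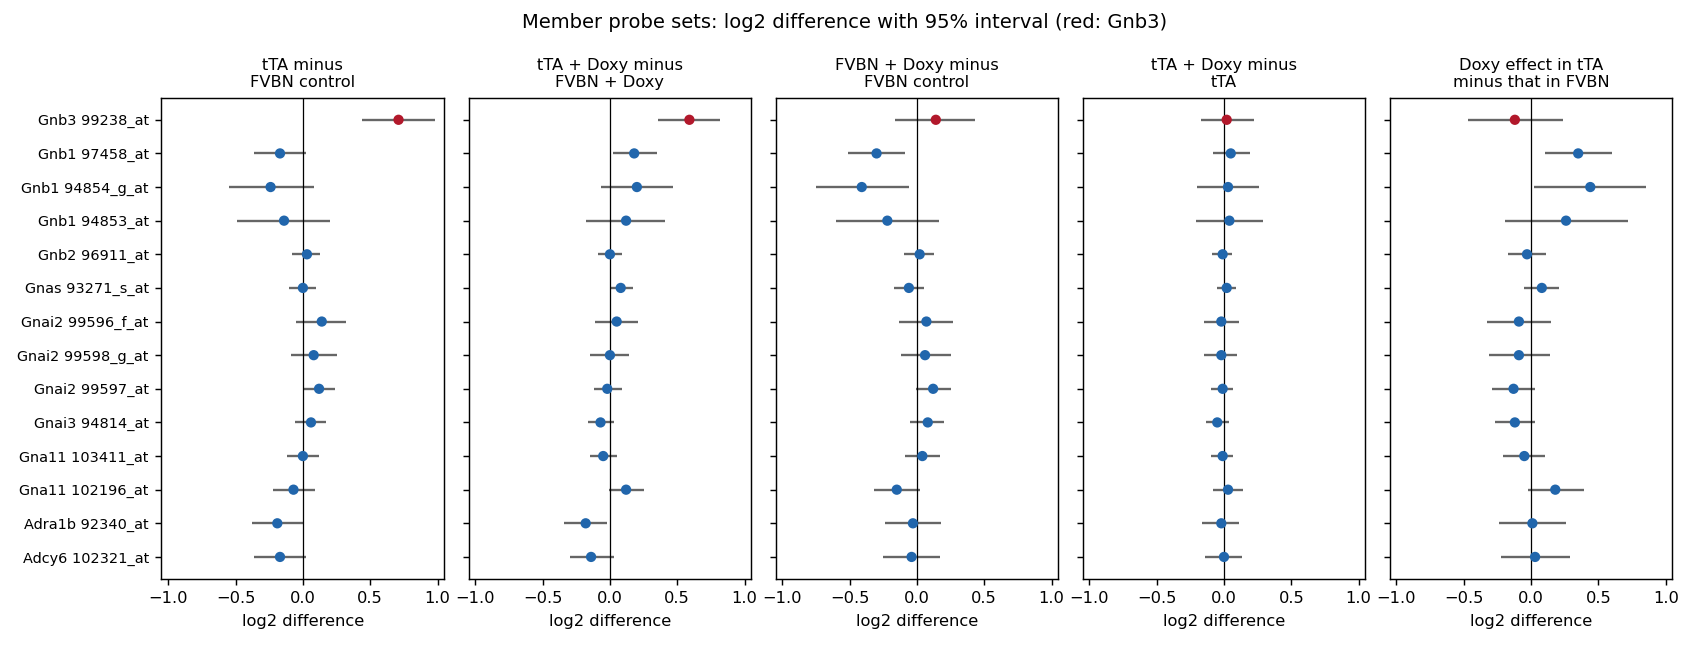
Log2 differences of the 14 tested probe sets with 95% intervals in the 5 comparisons, Gnb3 in red. Gnb3 stands at 0.71 and 0.59 in the genotype comparisons and near 0 in the Doxy comparisons, while the 3 Gnb1 probe sets lie below 0 for Doxy in FVBN. The Gnb3 intervals between genotypes take no account of its selection on that difference, so nothing is read from them.

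Further genes of the pathway were read from 11 lists of 159 genes, of which 99 were on the array with a probe set of their own and 61 were tested by their brightest one. The lists were chosen with earlier results known. The 61 are counted by gene and the shares of all by probe set, so the 2 are unlike units. In tTA against FVBN control 2 rose and 4 fell (9.84%), where 0.966% of all tested probe sets rose and 1.82% fell. These 6 calls numbered 2 to 6 under the alternative settings. In tTA + Doxy against FVBN + Doxy 1 rose and 3 fell (6.56%), where 4.27% of all rose and 1.6% fell. None passed limma's test for Doxy in FVBN, for Doxy in tTA or for the difference of these effects, where 7, 4 and 9 had an unadjusted p below 0.05 (11.5%, 6.56% and 14.8%, beside 11.8%, 7.65% and 14.6% of all tested probe sets). In the genotype comparisons 16 and 11 did (26.2% and 18%, beside 16.7% and 21.1% of all). The median of the 61 was 0.0215 and -0.0553 in the genotype comparisons, beside 0.0133 and -0.0148 over all probe sets.

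Of 11 tested subunits, inhibitors and anchors of protein kinase A, 1 fell in each genotype comparison, and it was Pkig, the gamma form of the kinase's inhibitor protein. Pkig read 660, 577, 598, 628 and 586 in tTA + Doxy and 542 to 635 with a median of 593 in tTA. It read 702, 771, 690 and 739 in FVBN + Doxy and 852 and 824 in FVBN control, so all 13 arrays with the transgene lay below all 6 without it. Such a downward separation was seen for 0.564% of all tested probe sets. Pkig fell by 0.51 on the log2 scale in tTA against FVBN control (SE 0.0648, limma adjusted p = 6.05e-05) and by 0.25 in tTA + Doxy against FVBN + Doxy (SE 0.055, adjusted p = 0.00854). The Doxy effects in the 2 genotypes differed by 0.26 for Pkig, which did not pass (limma adjusted p = 0.246).

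Of 8 tested cardiac targets of protein kinase A, 2 fell without Doxy, and 2 fell and 1 rose with it. Ryr2, through which calcium leaves the sarcoplasmic reticulum, read 489, 461, 453, 504 and 383 in tTA + Doxy, 393 to 490 in tTA, 597, 699, 827 and 626 in FVBN + Doxy, and 727 and 801 in FVBN control. It fell by 0.82 without Doxy and by 0.58 with it (limma adjusted p = 5.94e-05 and 0.000527), with no overlap between genotypes. Of all tested probe sets, 0.564% lay lower on all 13 arrays with the transgene than on all 6 without it. Cacna1c, the pore subunit of the L-type calcium channel, fell by 0.36 without Doxy (limma adjusted p = 0.0165) and by 0.33 with it (adjusted p = 0.00555), though 1 tTA + Doxy array (294) stood above 1 FVBN + Doxy array (283). Without FVBN control array 8177 the first Cacna1c difference was -0.27 (limma adjusted p = 0.381). Mybpc3, a thick filament protein, rose by 0.31 with Doxy (adjusted p = 0.00104), and its difference without Doxy was 0.20 (adjusted p = 0.0741).

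Of 5 tested Gq effectors, 1 rose without Doxy and none was called with it. Prkcd, the delta isoform of protein kinase C, read 203, 217, 216, 205 and 217 in tTA + Doxy, 199 to 230 with a median of 218 in tTA, 205, 183, 200 and 196 in FVBN + Doxy, and 177 and 186 in FVBN control. It rose by 0.26 without Doxy (SE 0.0569, limma adjusted p = 0.0138) and differed by 0.11 with it (adjusted p = 0.18). Its other probe set, 104531_at, rose by 0.38 and 0.33 (limma adjusted p = 0.00673 and 0.00354). Without FVBN control array 8177 or 8182 the first call of Prkcd was lost (limma adjusted p = 0.272 and 0.0742). Itpr2, an inositol trisphosphate receptor gene, lay at -0.24 without Doxy by its brightest probe set (adjusted p = 0.0741), while its probe set 101441_i_at fell by 0.77 (SE 0.153, adjusted p = 0.00897). The Itpr2 probe sets 94565_at and 96420_at were not called in any comparison.

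Among 3 other tested alpha subunits, Gnao1, the Go subunit gene, rose by 0.18 without Doxy (164 to 182 in tTA, against 151 and 150 in FVBN control, limma adjusted p = 0.0397), and its 4 other probe sets gave 0.02 to 0.14, of which 3 were tested and none was called. With Doxy Gnao1 differed by 0.02 (adjusted p = 0.85). Among 5 other beta and gamma subunits, Gng11, a gamma subunit gene, fell by 0.24 without Doxy (85.0 to 94.6 in tTA, against 95.3 and 115 in FVBN control, limma adjusted p = 0.0242) and lay at -0.13 with it (adjusted p = 0.13). The Gng11 difference without FVBN control array 8182 was -0.10 (adjusted p = 0.514). The Gnao1 call was lost without array 8177 or 8182 (limma adjusted p = 0.276 and 0.224), and at adjusted p of 0.0513 to 0.0655 without tTA array 7308 or 7311 or tTA + Doxy array 7485 or 7488. With the beta-actin covariate the calls without Doxy of Gnao1, Gng11, Prkcd and Cacna1c were lost (limma adjusted p = 0.305, 0.123, 0.284 and 0.117), as was that of Pkig with Doxy (0.0528), while the differences were 0.18, -0.27, 0.22, -0.40 and -0.22. In a fit on only the arrays compared Gnao1 and Gng11 were not called (limma adjusted p = 0.127 and 0.0949), nor was Gnao1 after median scaling (0.0678) or Cacna1c with all probe sets tested (0.0548).

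The remaining lists held no called gene in any comparison. For these, the largest differences without and with Doxy were, for the 8 other G protein-coupled receptors of the heart, 0.11 for the sphingosine phosphate receptor gene S1pr2 and -0.09 for the histamine receptor gene Hrh2. All 8 lay between -0.09 and -0.04 with Doxy, beside a median of -0.0148 over all probe sets. The 1 other adrenergic receptor gene tested, Adra2c, differed by 0.06 and 0.00. Of the 5 other adenylyl cyclases Adcy9 differed most, by -0.11 and -0.12. Of the 3 phosphodiesterases, which break down cyclic nucleotides, Pde8a differed most, by -0.13 in both. Among 4 receptor kinases, arrestins and related genes Pdc, which binds beta-gamma pairs, lay at -0.25 and -0.12. Of the 8 genes listed as regulators of G protein signaling, Rgs3 lay at 0.12 without Doxy and Rgs16 at -0.13 with it.

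**Figure D5:**
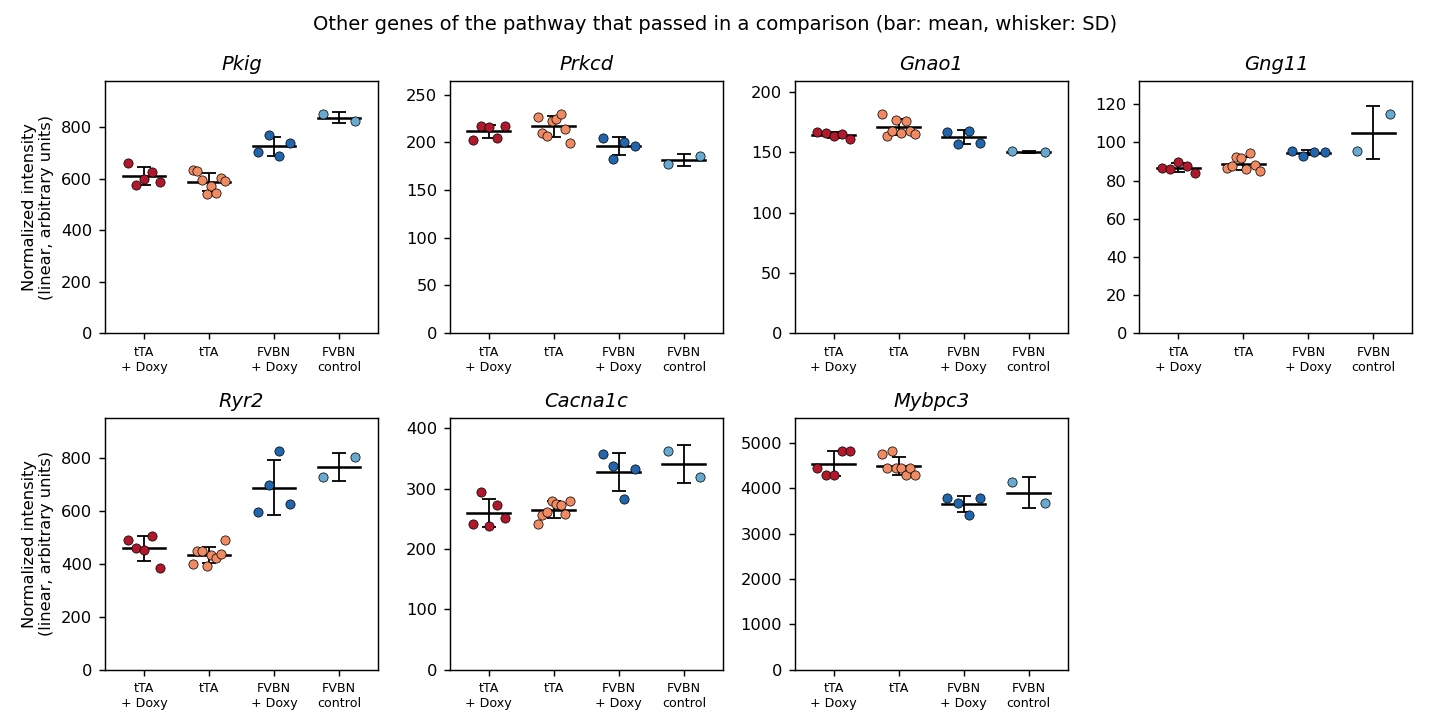
Normalized intensity (linear, arbitrary units) on each array of the 7 other pathway genes that passed in a comparison, with means as bars and SDs as whiskers; levels are not comparable between panels. Pkig and Ryr2 are lower on all 13 arrays with the transgene than on all 6 without it, as are 0.564% of all tested probe sets.

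The genes whose pattern over the 19 arrays was most like that of Gnb3, by Pearson r of log2 values among 5657 other genes, were Clu (0.925), Lgals1 (0.909), 1190005I06Rik (0.903), Snap47 (0.886) and Cops4 (0.88). The most opposite were Lclat1 (-0.925), Nsmce1 (-0.895) and Bmi1 (-0.884). After the group means were subtracted r was 0.548 to 0.657 for the first 5 and -0.642 to -0.429 for the last 3, over arrays that share RNA and scaling within themselves. Of the other genes on the list Adcy6 had r of -0.662 with Gnb3 and Adra1b -0.571, and the rest lay between -0.206 and 0.263. These values include the genotype difference on which Gnb3 was selected. Within groups r was -0.518 for Adcy6, -0.135 for Adra1b and -0.526 for Gnb2, and -0.287 to 0.244 for the others.

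Genes next to Gnb3 on chromosome 6 were read from the RefSeq gene order of GRCm38.p6, taking the nearest 5 with a probe set on each side. Of these 10, Cdca3, the immediate neighbour on one side, was too dim to be tested. Among the 9 tested (Usp5, Tpi1, Spsb2, Lrrc23, P3h3, Gpr162, Cd4, Lag3 and Ptms) only the glycolytic enzyme gene Tpi1 was called, at 0.25 in tTA + Doxy against FVBN + Doxy (SE 0.0561, limma adjusted p = 0.0115). In that comparison 5.86% of all tested probe sets were called. Tpi1 differed by 0.23 without Doxy (limma adjusted p = 0.0657). The other 8 lay between -0.13 and 0.14 in the genotype comparisons.

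Markers of other cells of the ventricle moved with genotype in some cases, and their part in the results above was not tested. Sums take in all listed markers with a probe set, tested or not. Smooth muscle markers (5 of 6 tested) summed to 881 to 1061 in tTA + Doxy, 796 to 909 in tTA, 969 to 1116 in FVBN + Doxy and 1016 to 1112 in FVBN control, and among them Acta2 fell by 1.27 without Doxy and by 0.66 with it (limma adjusted p = 0.00151 and 0.0278) and Smtn rose by 0.26 with Doxy (0.0193). Endothelial markers (7 of 7) summed to 1034 to 1143, 1077 to 1162, 1086 to 1199 and 1218 to 1220 in the same groups, and Emcn fell by 0.28 without Doxy (adjusted p = 0.0265). Macrophage and leukocyte markers (5 of 6) summed to 580 to 651, 568 to 634, 652 to 712 and 623 to 665, and Cd14 fell by 0.19 with Doxy (adjusted p = 0.034). Sympathetic nerve and Schwann cell markers (3 of 7 tested) summed to 375 to 407, 370 to 397, 373 to 387 and 356 to 365. No marker of fibroblasts, nerve, blood, atrial muscle or fat was called, where 2.79% and 5.86% of all tested probe sets were called between genotypes without and with Doxy. Fibroblast markers summed to 2853 to 3180, 2723 to 3891, 3088 to 3397 and 3203 to 3214. Blood markers summed to 2453 to 5376, 2547 to 4631, 5119 to 5620 and 4615 to 5130. Atrial muscle markers (4 of 6 tested) summed to 474 to 557, 472 to 702, 544 to 608 and 546 to 580.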

How the data were processed

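The deposited table holds linear intensity values of 20 Affymetrix arrays with 12488 probe sets, as the authors made them. How intensities were summarised, background-corrected and scaled is not given in the sources used here. One array whose title gives no number or treatment entered no comparison. Without 66 control probe sets, 12422 were quantile normalized over 19 arrays, set to at least 14.37 (their 10th percentile) and log2-transformed. Of these, the brightest 60% (7453) were fitted with 4 group means in limma 3.58.1 (R 4.3.3; eBayes with trend and robust), with Benjamini-Hochberg adjustment over all tested probe sets of a comparison and calls at adjusted p below 0.05. Intervals are 95% and moderated. Precision is limited by the number of arrays. The fit was tested on simulated data, where small added differences were recovered only in part. A small difference that did not pass is thus not shown to be absent. The annotation linked 10833 probe sets to 1 gene, 396 to several and 1193 to none, and 10817 were matched to RefSeq by gene number. A gene with several probe sets is represented by its brightest where 1 value is given. Levels are not compared between probe sets.

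The genes, pathway lists, markers, tests and alternatives were chosen with earlier results of these data known. All probe sets of the 10 genes are named. In each further list, all called genes are named, or up to 4, and otherwise the gene with the largest difference. The 5 genes most like Gnb3 and the 3 least like it are named. Named besides these, after their values were seen, are genes tied to a count in the text. Figures used Python 3.11.15 with matplotlib 3.10.9.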

Additional observations from a re-analysis of the deposited data

Results flagged for a closer look

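Each probe set read here was examined within each group of 4 or more arrays, 69 cases in all, and in 2 cases an array stood apart from the rest of its group. Chance alone gives about 1 in 20 cases, so 2 of 69 is no more than chance gives. Both gaps exceed Dixon's critical value for a group of their size. Gna11 probe set 103411_at read 227 on tTA array 7310, against 193 to 201 on the other tTA arrays, a gap of 0.74 of the group's log2 range. Gna11 probe set 102196_at read 123 on FVBN + Doxy array 8341, against 110 to 112 on the other FVBN + Doxy arrays, a gap of 0.86 of the log2 range.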

How the results depend on the processing

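The count of called probe sets of the list in tTA against FVBN control was 1 (Gnb3, listed for this contrast, so nothing is read from it), and 0 with the beta-actin covariate; leaving out each array in turn gave 0 to 1, with 0 without FVBN control array 8177 or 8182. In the other comparisons the counts (1, 0, 0 and 0) were the same under each alternative run and without each array. The 1, in tTA + Doxy against FVBN + Doxy, was again Gnb3, so nothing is read from it either. Alternatives were median scaling, no further normalization, no floor or a higher one, all probe sets, array weights, no trend or robust option, only the arrays compared, no tTA arrays 9310 and 9322, and the beta-actin ratio added as covariate; the Gnb3 differences were 0.53 to 0.78 without Doxy and 0.47 to 0.65 with it.

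In the 61 pathway genes, calls numbered 6 in tTA against FVBN control (2 to 6 under the alternatives, 3 to 7 without each array, with 3 without 8177 or 8182) and 4 in tTA + Doxy against FVBN + Doxy (3 to 4, and 4 to 5). Over the whole table the 437 calls in the second comparison numbered 703 once arrays were weighted, and 282 when dim probe sets were kept in. Gng11 probe set 161473_f_at lay at the floor, with a difference of 0.0. No paired analysis was possible because no array number is shared between groups. The 2 arrays of FVBN control limit the comparisons that use them, and dim probe sets have no test.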

Other observations

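The array that the labels put in no group, titled Cardiac tTA expression, had a deposited Gnb3 intensity of 100. Deposited Gnb3 intensities were 127 to 190 in tTA + Doxy, 124 to 171 in tTA, 90.5 to 102 in FVBN + Doxy and 85.8 to 90.4 in FVBN control. Its Gnb3 value thus lay within the range of FVBN + Doxy and below each tTA array, and no group was inferred from it. On the same array Gnb2 read 439, Gnas 93271_s_at 3565, Gnai2 99596_f_at 1419, Adra1b 99.0 and Adcy6 318, and the Gnb1 probe sets 97458_at, 94854_g_at and 94853_at read 233, 118 and 61.5.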
